A study of Danio rerio with 13 samples.

Results

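The genes described here are those of the Fgf pathway in zebrafish embryos, taken from the deposited table of gene levels by name: entries starting with *fgf* and a digit, *fgfr*, *fgfbp*, *spry*, *spred*, *dusp6*, *etv4*, *etv5* or *il17rd*. The rule found 63 of the 27911 entries. Of these, 25 encode secreted ligands, 7 intracellular Fgf homologous factors, 4 Fgf binding proteins, 7 kinase receptors, 2 decoy receptors, 9 feedback inhibitors and 3 ETS transcription factors, which makes 57 pathway genes. The other 6 share only the letters of the name (*fgfr1op*, *fgfr1op2*, *spryd3*, *spryd4*, *spryd7a* and *spryd7b*) and are not counted as pathway genes below. Levels are RPKM, read counts scaled by transcript length and by the reads mapped in the library. This scaling does not make the libraries fully comparable. Over 7898 genes, the median ratio of a library to the mean of all libraries ranged from 0.845 to 1.17.

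Secreted Fgfs bind receptor tyrosine kinases together with heparan sulfate and signal mainly through Ras and the ERK kinases. The ETS factors Etv4 and Etv5 are transcribed in response, and so are inhibitors that feed back on the relay: the Sprouty and Spred proteins, the ERK phosphatase Dusp6 and the transmembrane antagonist Il17rd (Sef). In zebrafish, Fgf3 and Fgf8 made around the pharyngeal arches are required for the arch cartilages, which form from cranial neural crest cells (NCCs).

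Arch NCCs had been sorted as cells doubly positive for *fli1a*:EGFP and *sox10*:DsRed and profiled by RNA sequencing in 11 populations, with the 2 single-positive populations of wild types at 36 hours post-fertilization (hpf) beside them. Perturbed embryos at 36 hpf were *hsp70I*:Gal4; *UAS*:NICD transgenics, which express the active intracellular domain of Notch1a upon heat shock, *hsp70I*:Gal4; *UAS*:Edn1 transgenics, which express the signaling peptide Endothelin 1, *edn1*-/- mutants, *jag1b*-/- mutants, which lack a Notch ligand, and wild types given 10 µM dibenzazepine (DBZ), a γ-secretase inhibitor that blocks Notch activation, from 24 hpf. Their references were heat-shocked *UAS*:Edn1 and *hsp70I*:Gal4 single transgenics, *jag1b*+/+ siblings and untreated wild types, and wild types were also taken at 20 and 28 hpf. All embryos carried both sorting transgenes, heat shocks at 40 °C ran from 20 to 24 hpf, and embryos for the 36 hpf sorts were held at 22 °C from 27 hpf. *jag1b* mutants and siblings and the double transgenics with NICD or Edn1 were genotyped from a tail biopsy at 24 hpf. *edn1* mutants were picked by the shape of their arches, and each population pooled many embryos. No library was labeled as treated with DMSO, so DBZ had no vehicle control here.

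There was 1 library per condition, so no test between conditions could be made and no p-value is given. A gene was called higher or lower at a 1.5-fold ratio of RPKM, and each perturbed library was set against 2 control libraries at 36 hpf, the one used in the study first. Counting intervals (95%, exact Clopper-Pearson) come from whole reads recovered from the RPKM values. They compare libraries rather than conditions, cover counting error only, and could be given for 43 of the 63 entries. Sequencing depth ranged from 0.687 (*edn1* mutants) to 1.23 (*hsp70I*:Gal4 controls) of that of the 36 hpf wild type.

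Marker levels and targeted genes were checked first. Summed RPKM of 12 arch NCC markers was 411 to 982 in the 11 double-positive libraries, against 266 in *fli1a*:EGFP single-positive cells, in which 12 endothelial markers summed to 263, and 320 in cells with *sox10*:DsRed alone, in which 6 ear markers summed to 247 and 5 pigment cell markers to 380. The arch NCC markers include *sox10* itself, with 161 RPKM in cells with *sox10*:DsRed alone and 3.12 RPKM in 36 hpf wild-type double-positive cells. *notch1a* had 31.0 RPKM with NICD overexpression against 3.44 and 3.26 RPKM in *hsp70I*:Gal4 and *UAS*:Edn1 controls. *edn1* had 6.31 RPKM with Edn1 overexpression against 0.502 and 0.225 RPKM in these controls, and was at 0 in *edn1* mutants, but only at 0.0488 RPKM in the 36 hpf wild type. *jag1b* had 3.42 RPKM in *jag1b* mutants against 18.9 RPKM in siblings.

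The 36 hpf wild type, both single-positive libraries and the *edn1* mutant stood apart from the 9 other libraries, and they carry the 4 lowest library codes in the labels. Of 7927 genes that averaged 3 RPKM or more, 174 were at least 1.5-fold lower in each of these 4 libraries than in any of the others, and 51 were at least 1.5-fold higher. The labels name sequencers of 2 kinds without saying which library was run on which. These 4 libraries were also the only 36 hpf ones from embryos without heat shock, DBZ or a tail biopsy. The 9 others differed in such handling or in stage, so library code cannot be told apart from these. Among the pathway genes, *fgf3*, *spred1*, *spry4* and *dusp6* were lower in both the 36 hpf wild type and the *edn1* mutant than in all 9 other double-positive libraries, and *fgfr1a* and *spry1* were higher. These were 4 lower and 2 higher of 26 genes, where 8.62% of 11690 genes lay below and 12.6% above in the same way (21.3% together). For *fgf3* the gap was wide: 2.04 RPKM in the 36 hpf wild type and 1.87 RPKM in the *edn1* mutant, against 15.4 RPKM in *jag1b* siblings at the same stage. For this reason the counts of pathway genes against the 36 hpf wild type are also given with the *jag1b* siblings.

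Most Fgf ligand genes were hardly detected in the sorted cells. Of the 25 ligands, 15 reached an RPKM of 1 in no library, and *fgf23* and *fgf6b* were listed at 0 in all 13. Counts of genes below are over the 26 of the 57 pathway genes with a mean of at least 1 RPKM over the 13 libraries. These are 3 ligands, 3 binding proteins, 1 intracellular factor, 6 receptors, both decoy receptors, 8 feedback inhibitors and the 3 ETS factors. The filter can favor a gene that is high in a few libraries, so these counts describe the genes that passed and not the pathway as a whole. In the whole table, 11690 genes passed it.

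The ligands with a signal in arch NCCs were *fgf3*, *fgf10a* and *fgf20b*. Over the double-positive libraries *fgf3* ranged from 1.87 to 27.5 RPKM, *fgf10a* from 1.83 to 17.3 RPKM and *fgf20b* from 0.107 to 8.08 RPKM. Fgf10 signals through the Fgfr2b receptor isoform in mammals, and Fgf20 belongs to the Fgf9 subfamily. The next ligands were lower: *fgf16* reached 1.58 RPKM (104 reads) in *edn1* mutants, *fgf10b* 1.49 RPKM with DBZ and *fgf1b* 1.22 RPKM with DBZ.

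On the receiving side, *fgfr4* and *fgfr2* had the highest levels of the kinase receptors. *fgfr4* ranged from 10.3 to 48.8 RPKM and *fgfr2* from 9.41 to 47.0 RPKM over the double-positive libraries, whereas *fgfr1a* ranged from 2.16 to 5.12 RPKM and *fgfr1b* from 2.80 to 5.60 RPKM. The decoy receptor gene *fgfrl1a*, which encodes a receptor without a kinase domain, ranged from 4.90 to 29.3 RPKM. The highest levels were reached by targets and inhibitors. *etv5b* ranged from 49.5 to 96.9 RPKM, *spry4* from 36.6 to 102 RPKM, *spry2* from 25.5 to 61.2 RPKM and *dusp6* from 14.6 to 82.6 RPKM. The Spred genes were lower, with *spred1* at 7.65 to 24.9 RPKM, *spred2a* at 3.50 to 7.62 RPKM and *spred2b* at 4.87 to 11.7 RPKM. *spred3* was the inhibitor that did not pass the filter, at no more than 0.626 RPKM in any library.

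**Figure D1:**
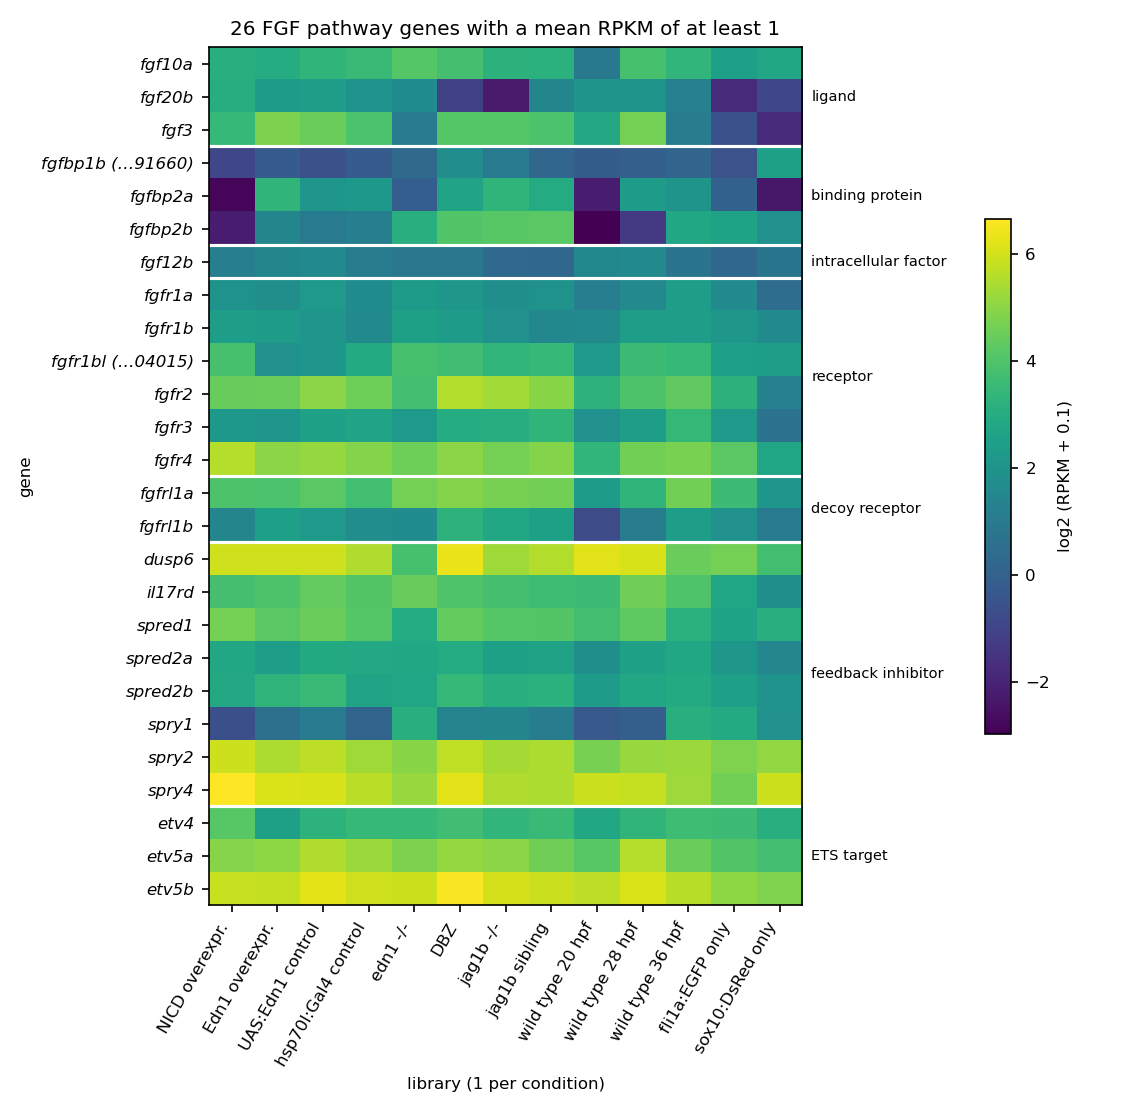
Levels of the 26 pathway genes with a mean of at least 1 RPKM in the 13 libraries, as log2 of RPKM plus 0.1, with 1 row per gene grouped by role and 1 column per library. Rows of *etv5b*, *spry4* and *spry2* are bright in every column, while *fgf20b* is dark in the *jag1b*-/-, DBZ and single-positive columns. *fgfbp2a* is dark with NICD overexpression, at 20 hpf and in *sox10*:DsRed single-positive cells. Entries that share a name are marked by the end of their Ensembl number.

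Receptor, decoy receptor and ligand genes were among those higher at 28 than at 20 hpf, with 4 of 6 receptors, both decoy receptors and 2 of 3 ligands, against 2 of 8 feedback inhibitors. Of the 26 genes, 13 were at least 1.5-fold higher at 28 hpf than at 20 hpf and none was lower, where 31.5% of all genes differed in either direction, 20.5% being higher and 11% lower. The median log2 ratio was 0.65 for the pathway genes, against 0.10 for all genes. *fgf10a* had 1.83, 14.4 and 10.2 RPKM at 20, 28 and 36 hpf, and *fgf3* had 7.09, 25.4 and 2.04 RPKM. For *fgf10a* the 28 hpf library was 7.87-fold above the 20 hpf library (counting interval 6.75 to 9.22), and for *fgf3* it was 3.58-fold above (3.29 to 3.91). Both ligands were therefore highest at 28 hpf among the wild-type stages, but the 36 hpf value of *fgf3* depends on the library, with 15.4 RPKM in *jag1b* siblings.

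The binding protein genes *fgfbp2a* and *fgfbp2b* differed steeply between stages. Fgf binding proteins release ligands from the extracellular matrix in mammals. *fgfbp2a* had 0.119, 4.91 and 3.99 RPKM at 20, 28 and 36 hpf and 7.72 RPKM in 36 hpf siblings, so that it was 41.2-fold higher at 28 than at 20 hpf (21.5 to 90.9, with 9 reads at 20 hpf). *fgfbp2b* came later, with 0.0287, 0.3003 and 6.85 RPKM at the 3 stages and 18.3 RPKM in 36 hpf siblings. The *fgfbp1b* entry ENSDARG00000091660 was flat, with 0.823, 0.864 and 1.03 RPKM and 1.08 RPKM in siblings.

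The decoy receptors were higher at each later stage, and the 36 hpf wild type and siblings had similar levels. *fgfrl1a* had 4.90, 10.1 and 24.6 RPKM at the 3 stages and 24.4 RPKM in siblings. *fgfrl1b* had 0.514, 1.997 and 5.30 RPKM and 5.58 RPKM in siblings. Levels were lower in the heat-shocked *hsp70I*:Gal4 and *UAS*:Edn1 controls at 36 hpf, with 13.4 and 18.3 RPKM of *fgfrl1a* and 3.30 and 4.55 RPKM of *fgfrl1b*. The kinase receptors differed among themselves in timing. *fgfr4* had 10.3, 24.3 and 26.4 RPKM, with the difference before 28 hpf. *fgfr3* had 3.69, 5.17 and 10.9 RPKM, with 10.02 RPKM in siblings, and differed mainly after 28 hpf in these libraries. In the *hsp70I*:Gal4 and *UAS*:Edn1 controls *fgfr3* had 6.22 and 5.75 RPKM, close to 28 hpf. *fgfr2* had 9.41, 15.6 and 19.9 RPKM and 31.4 RPKM in siblings.

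Between 28 and 36 hpf the pathway genes diverged. Against the 28 hpf library 6 genes were higher and 7 lower in the 36 hpf wild type (39.8% of all genes differed, 15.1% higher and 24.6% lower), and 7 were higher and 7 lower in the siblings (31.1%, 8.2% higher and 22.9% lower). In both of these 36 hpf libraries *fgfr3*, *fgfrl1a*, *fgfrl1b*, *fgfbp2b* and *spry1* were higher and *fgf3*, *fgf20b*, *fgf12b*, *etv5a* and *il17rd* were lower. This is 5 in each direction where 5.9% of all genes were higher and 13.8% lower, 19.7% together. The heat-shocked *hsp70I*:Gal4 and *UAS*:Edn1 controls at 36 hpf shared only part of this. Both were 1.5-fold from 28 hpf in the same direction only for *fgfrl1b* and *fgfbp2b*. For *fgfr3*, *fgf20b*, *fgf12b*, *etv5a* and *il17rd* both were within 1.5-fold of 28 hpf. For *fgfrl1a*, *spry1* and *fgf3* these controls disagreed. *fgf12b*, an intracellular factor, had 2.81, 2.94 and 1.58 RPKM at the 3 stages and 1.11 RPKM in siblings. *etv5a* had 17.8, 48.6 and 22.6 RPKM at the 3 stages and 23.9 RPKM in siblings, so that its level peaked at 28 hpf among these libraries. *il17rd* followed the same course with 12.3, 23.97 and 15.9 RPKM and 12.9 RPKM in siblings. In the *hsp70I*:Gal4 and *UAS*:Edn1 controls *etv5a* had 37.5 and 45.4 RPKM and *il17rd* 16.9 and 20.1 RPKM. *dusp6*, in contrast, was highest at 20 hpf, with 76.2, 67.5 and 21.8 RPKM, but 47.1 RPKM in siblings, which is within 1.5-fold of 28 hpf. *spry1* had 0.726, 0.864 and 8.55 RPKM and 2.09 RPKM in siblings, so that its 36 hpf ratio to 28 hpf was 9.90 or 2.42 depending on the library. The stage libraries also differed in other cells. Of 8 macrophage and neutrophil markers 7 were found, and their summed RPKM was 352, 841 and 24.4 at the 3 stages. The higher sum at 28 than at 20 hpf came from *lyz* (18.9 and 645 RPKM at 20 and 28 hpf) and *mpx* (1.13 and 38.3 RPKM). In contrast, *spi1b*, *lcp1*, *coro1a*, *mfap4* and *csf1ra* were lower at 28 than at 20 hpf. Erythroid markers summed to 657, 3795 and 133 RPKM, and muscle markers to 5.81, 23.1 and 401 RPKM. The part of these cells in the stage differences was not tested.

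**Figure D2:**
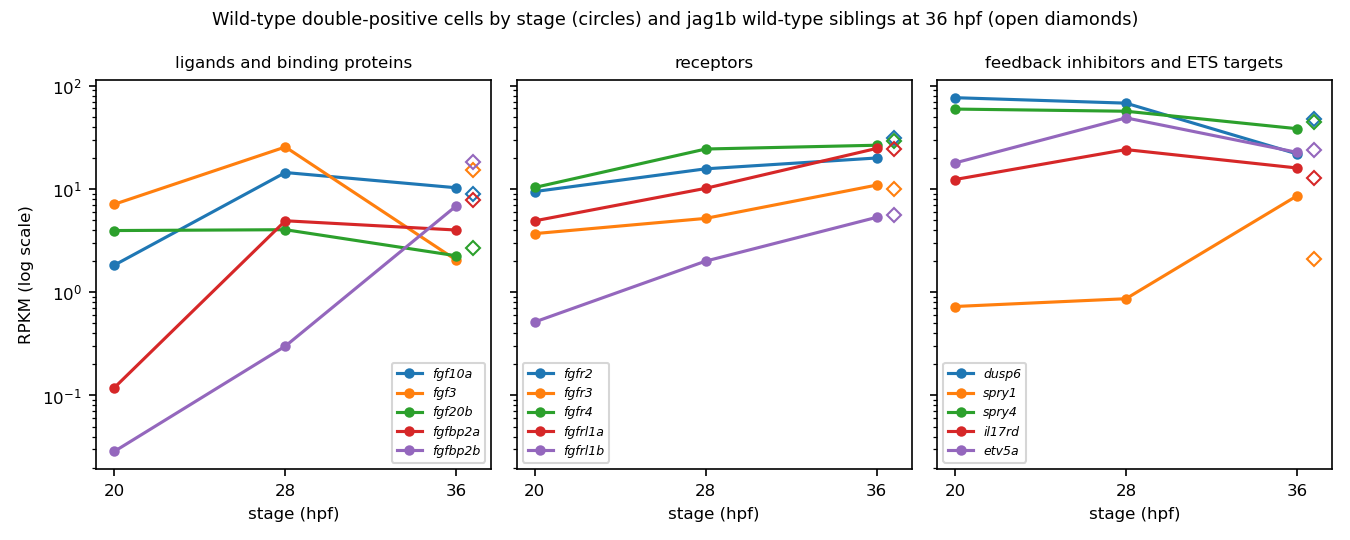
RPKM on a log scale (y axis) at 20, 28 and 36 hpf (x axis) in wild-type double-positive cells, 1 library per circle, with *jag1b* wild-type siblings at 36 hpf as open diamonds drawn to the right. *fgfbp2a* and *fgfbp2b* span the widest range, the receptor panel increases at each step, and the distance between circle and diamond at 36 hpf is largest for *fgf3*, *spry1* and *fgfbp2b* among the genes drawn.

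In sorted wild types at 36 hpf, all 3 measured ligands, 4 of 6 kinase receptors, 4 of 8 feedback inhibitors and 1 of 3 ETS factors exceeded their level in *fli1a*:EGFP single-positive cells by 1.5-fold or more in double-positive cells. With the siblings the receptor *fgfr1a* (1.22-fold) and the inhibitor *spred2a* (1.35-fold) did not reach this. Against *sox10*:DsRed single-positive cells 2 ligands, all 6 receptors, 5 feedback inhibitors and all 3 ETS factors were higher, although *fgfr1b* and *etv4* were not with the siblings, and *spry1* was 1.75-fold lower, with 2.09 RPKM in siblings against 3.65 RPKM. The 3 wild-type populations at this stage all belong to the 4 libraries that stood apart. In bulk samples, fewer cells of a type and less RNA per cell cannot be told apart. Against *fli1a*:EGFP single-positive cells 15 of 26 genes were higher and none was lower (29.6% of all genes differed, 17.8% higher and 11.8% lower), with a median log2 ratio of 0.62 against 0.22 for all genes. Against *sox10*:DsRed single-positive cells 20 were higher and 2 lower (39.3% of all genes differed, 22.9% higher and 16.4% lower), with a median of 1.03 against 0.15 for all genes. With the siblings as the double-positive library, 19 were higher and 2 lower than in *fli1a*:EGFP cells (41.4% of all genes differed, 21.7% higher and 19.7% lower), and 18 were higher and 2 lower than in *sox10*:DsRed cells (50.4%, 25.1% higher and 25.3% lower). With both libraries 13 were higher and none lower than in *fli1a*:EGFP cells (19.3% of all genes, 10.2% higher and 9.15% lower), and 17 were higher and 1 lower than in *sox10*:DsRed cells (29.8%, 16.2% higher and 13.5% lower). After rescaling each library to a common median, 9 genes instead of 15 differed from *fli1a*:EGFP cells. The filter averages over 11 double-positive and 2 single-positive libraries, so it tends to drop genes high only in single-positive cells. Without a minimum, 22 of 46 genes were higher and 7 lower than in *fli1a*:EGFP cells. Against *sox10*:DsRed cells 27 of 46 were higher and 10 lower. No share of all genes was computed for these counts.

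*fgfr2* had 19.9 RPKM in double-positive cells, against 9.40 RPKM in cells with *fli1a*:EGFP alone and 2.28 RPKM in cells with *sox10*:DsRed alone. *fgfr4* had 26.4 RPKM against 18.6 and 6.397 RPKM in the same order. *fgfrl1a* had 24.6 RPKM against 12.3 and 4.18 RPKM. All 3 receptor genes were lowest in *sox10*:DsRed cells. The ligand *fgf20b* had 2.25 RPKM (71 reads) in double-positive cells, against 0.183 RPKM (5 reads) in *fli1a*:EGFP cells and 0.435 RPKM (13 reads) in *sox10*:DsRed cells, that is 12.3-fold (5.02 to 38.9) and 5.17-fold (2.84 to 10.2) higher. *fgfbp2a* was 4.33-fold (3.27 to 5.82) and 40.7-fold (19.5 to 102) higher in double-positive cells, with 3.99 RPKM against 0.921 and 0.0982 RPKM.

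Not every pathway gene marked the arches. *spry4* had 38.2 RPKM in double-positive and 61.3 RPKM in *sox10*:DsRed cells, a 1.61-fold lower level in arch NCCs that was 1.37-fold with the siblings (44.7 RPKM). One of the 2 entries named *fgfbp1b* (ENSDARG00000091660) had 1.03 RPKM in double-positive cells against 5.65 RPKM in *sox10*:DsRed cells, and was 5.47-fold lower (3.96 to 7.71). Several ligands were detected mainly outside the double-positive gate. *fgf24* had 4.83 RPKM in *fli1a*:EGFP cells and at most 0.369 RPKM in double-positive libraries. *fgf8a*, one of the ligands known to act on the arches, had 1.78 RPKM in *fli1a*:EGFP and 1.51 RPKM in *sox10*:DsRed cells and at most 0.0785 RPKM in double-positive libraries. *fgf22*, *fgf20a* and the intracellular factors *fgf13a* and *fgf13b*, which bind sodium channels in neurons, were highest in *sox10*:DsRed cells, at 4.58, 1.55, 2.53 and 2.80 RPKM. In that library 7 neuron and glia markers summed to 110 RPKM, against 3.17 RPKM in double-positive cells. All 6 markers of the pharyngeal endoderm, another source of Fgf ligands, summed to at most 2.61 RPKM in any library, and *sox17* was at 0 in 9 of the 11 double-positive libraries.

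NICD overexpression was accompanied by a near loss of *fgfbp2a* and *fgfbp2b*, which are 2 of the 3 measured Fgf binding protein genes, and by higher levels of *fgf20b* and of part of the targets. Against *hsp70I*:Gal4 controls 7 of 26 genes were higher and 4 lower (24.3% of all genes differed, 16.6% higher and 7.72% lower), and against *UAS*:Edn1 controls 4 were higher and 7 lower (24.9%, 15% higher and 9.95% lower). Against both, *fgf20b*, *spry4*, *etv4* and *fgfr1bl* (ENSDARG00000104015) were higher and *fgfbp2a*, *fgfbp2b* and *spry1* were lower, 4 and 3 of 26 genes where 8.66% of all genes were higher and 4.74% lower, 13.4% together. The median log2 ratio of the 26 genes was 0.001 and -0.33 against the 2 controls, and that of all genes 0.11 and -0.002. The balance of higher and lower genes thus depended on the control, while the genes named held against both. With 0.1 RPKM added to every value *fgf20b* was no longer called against both (1.496-fold against *UAS*:Edn1 controls), which left 3 higher and 3 lower.

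*fgfbp2a* had 0.0421 RPKM (3 reads) with NICD overexpression, against 4.41 RPKM (409 reads) in *hsp70I*:Gal4 and 4.18 RPKM (251 reads) in *UAS*:Edn1 controls. The ratio was 105-fold lower (counting interval 35.6 to 510) and 99.2-fold lower (33.6 to 484). *fgfbp2b* had 0.122 RPKM with NICD overexpression, against 2.11 and 1.95 RPKM in these controls, which is 17.3-fold and 16.0-fold lower. No read of the second entry named *fgfbp1b* (ENSDARG00000039963, listed as *fgfbp1a* in a current name table) was found with NICD overexpression, against 29 and 20 reads in the controls. Set at the floor of 3 reads, it was at least 7.42-fold and 7.91-fold lower. In the GRCz12tu gene order *fgfbp1a* and *fgfbp2a* are direct neighbors, and so are *fgfbp1b* and *fgfbp2b*. The *fgfbp1b* entry ENSDARG00000091660 differed less, with 0.437 RPKM (18 reads) against 0.801 and 0.575 RPKM (43 and 20 reads), and not by 1.5-fold against *UAS*:Edn1 controls.

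The ligand *fgf20b* had 8.08 RPKM (241 reads) with NICD overexpression, the highest of the 13 libraries, against 3.83 RPKM (149 reads) in *hsp70I*:Gal4 and 5.37 RPKM (135 reads) in *UAS*:Edn1 controls. It was 2.11-fold (1.71 to 2.60) and 1.51-fold (1.21 to 1.87) higher. The second ratio lies at the threshold. *fgf10b* had no read, against 10 and 18 reads in the controls, and was at least 2.56-fold and 7.12-fold lower at the floor of 3 reads. *fgf10a* had 8.52 RPKM against 11.8 and 10.1 RPKM and was not called.

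Among the targets *spry4* had 102 RPKM with NICD overexpression, against 51.2 and 67.6 RPKM in *hsp70I*:Gal4 and *UAS*:Edn1 controls, 1.99-fold and 1.505-fold higher. For *spry4* the ratio to *UAS*:Edn1 controls lies at the threshold. *etv4* had 18.1 RPKM against 11.3 and 9.53 RPKM, 1.60-fold and 1.90-fold higher. Both were the highest values among the 13 libraries. *spry1* differed from its relative *spry4*, with 0.553 RPKM (33 reads) against 1.02 and 1.91 RPKM (79 and 96 reads), 1.84-fold and 3.45-fold lower. The other ETS factors were not higher, with *etv5a* at 30.1 RPKM against 37.5 and 45.4 RPKM and *etv5b* at 58.2 RPKM against 63.6 and 77.0 RPKM. *fgfr1bl* (ENSDARG00000104015) had 14.6 RPKM against 7.42 and 4.20 RPKM, 1.97-fold (1.81 to 2.13) and 3.48-fold (3.10 to 3.91) higher. The controls themselves differed by more than 1.5-fold for this receptor.

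The NICD library also differed in cell type markers. Its 12 arch NCC markers summed to 577 RPKM against 809 and 930 RPKM in the controls, and *sox10*, a marker of early NCCs that is also high in *sox10*:DsRed single-positive cells, had 73.4 RPKM against 16.4 and 9.90 RPKM. Ear markers summed to 32.6 RPKM against 14.5 and 12.8 RPKM. That sum was carried mainly by *stm* (20.0 RPKM against 2.89 and 1.41 RPKM) and *otomp* (6.01 against 2.90 and 0.708 RPKM). *tecta* was also higher than in both controls. In contrast, *oc90* (5.58 against 8.17 and 10.2 RPKM) and *otol1a* were lower than in both controls, and *pax2a* lay between them. Pigment cell markers summed to 20.0 RPKM against 3.31 and 3.76 RPKM, with all 5 pigment markers higher than in both controls. In *sox10*:DsRed single-positive cells *fgfbp2a* had 0.0982 RPKM, below both controls as with NICD overexpression. *spry4*, at 61.3 RPKM there, and *fgfr1bl* (ENSDARG00000104015) lay between the controls. The other genes called against both controls went the other way in these cells. *fgf20b* (0.435 RPKM) and *etv4* (8.33 RPKM) were below both controls, and *fgfbp2b* (3.63 RPKM) and *spry1* (3.65 RPKM) above both. The part of other cells in the NICD values was not tested.

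Blocking or reducing Notch activity was accompanied by much lower *fgf20b* in both libraries in which it was done. *fgf20b* had 0.107 RPKM (3 reads) in *jag1b* mutants, against 2.66 RPKM (86 reads) in *jag1b* siblings and 2.25 RPKM (71 reads) in the 36 hpf wild type. It was 24.8-fold lower (8.20 to 122) and 20.9-fold lower (6.88 to 104). With DBZ it had 0.365 RPKM (12 reads), 6.17-fold lower than in the 36 hpf wild type (3.32 to 12.5) and 7.30-fold lower than in siblings (3.97 to 14.7). The *jag1b* and DBZ libraries share these controls, so their ratios are not independent of each other. No other double-positive library had less than 2.25 RPKM of *fgf20b*. Its level in *edn1* mutants was 3.23 RPKM and with Edn1 overexpression 4.86 RPKM, neither of them 1.5-fold from either control.

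Apart from *fgf20b*, 1 pathway gene was called in *jag1b* mutants against siblings, a comparison in which few of all genes were called. Against siblings 1 of 26 genes was higher and 1 lower (6.51% of all genes differed, 2.37% higher and 4.14% lower), and the same 2 genes held against both controls (3.13%, 0.778% higher and 2.35% lower). The higher one was the *fgfbp1b* entry ENSDARG00000091660, with 1.94 RPKM (75 reads) against 1.08 RPKM (48 reads) in siblings and 1.03 RPKM (45 reads) in the 36 hpf wild type, 1.81-fold (1.24 to 2.65) and 1.88-fold (1.29 to 2.79) higher. *fgfbp2a* and *fgfbp2b*, nearly lost with NICD overexpression, had 9.96 and 17.7 RPKM in mutants against 7.72 and 18.3 RPKM in siblings. *spry4* had 45.9 RPKM in mutants against 44.7 RPKM in siblings, *etv4* 10.4 against 11.3 RPKM, and *dusp6* 39.4 against 47.1 RPKM. None of these differed by 1.5-fold from the siblings. Against the 36 hpf wild type 7 genes were higher and 2 lower (33.3% of all genes differed, 12.8% higher and 20.5% lower), among them *fgf3* at 17.3 RPKM in mutants against 2.04 RPKM.

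DBZ was accompanied by higher levels of *dusp6*, *spry4* and *etv5b*, while most feedback inhibitors and ETS targets were not called against both controls. Against the 36 hpf wild type 11 of 26 genes were higher and 2 lower (29.8% of all genes differed, 14.2% higher and 15.7% lower), against siblings 8 were higher and 1 lower (20.9%, 12.2% higher and 8.73% lower), and against both 5 were higher and 1 lower (8.7%, 4.55% higher and 4.15% lower). The lower gene was *fgf20b*, and the 5 were *dusp6*, *spry4*, *etv5b*, *fgfrl1b* and the *fgfbp1b* entry ENSDARG00000091660. *dusp6* had 82.6 RPKM with DBZ against 21.8 RPKM in the 36 hpf wild type and 47.1 RPKM in siblings, 3.79-fold and 1.76-fold higher. *spry4* had 75.9 RPKM against 38.2 and 44.7 RPKM, 1.99-fold and 1.70-fold higher. *etv5b* had 96.9 RPKM against 49.5 and 58.9 RPKM, 1.96-fold and 1.64-fold higher. For *dusp6* and *etv5b* the DBZ value was the highest of the 13 libraries. Heat-shocked *UAS*:Edn1 controls had 62.1 RPKM of *dusp6*, 67.6 RPKM of *spry4* and 77.0 RPKM of *etv5b*. *spry1*, at 2.45 RPKM with DBZ, was lower than in the wild type (8.55 RPKM) but not than in siblings (2.09 RPKM). *il17rd* (15.9 RPKM against 15.9 and 12.9 RPKM) and *etv4* (13.2 against 12.7 and 11.3 RPKM) were within 1.5-fold. *fgfrl1b* had 9.60 RPKM against 5.30 and 5.58 RPKM, also its highest value. The *fgfbp1b* entry had 3.28 RPKM (149 reads), 3.18-fold (2.26 to 4.54) and 3.05-fold (2.19 to 4.31) higher than 1.03 and 1.08 RPKM in these controls. *fgf3* showed what the choice of control can do: at 17.3 RPKM with DBZ it was 8.47-fold above the 36 hpf wild type and 1.12-fold above siblings.

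Thus *spry4* was higher both with NICD overexpression and with DBZ, each against its own controls, whereas *fgf20b* was higher with NICD overexpression and lower with DBZ. With NICD overexpression both genes lay at the threshold against *UAS*:Edn1 controls. Embryos given DBZ had not been heat-shocked, and the 2 libraries have no control in common.

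**Figure D3:**
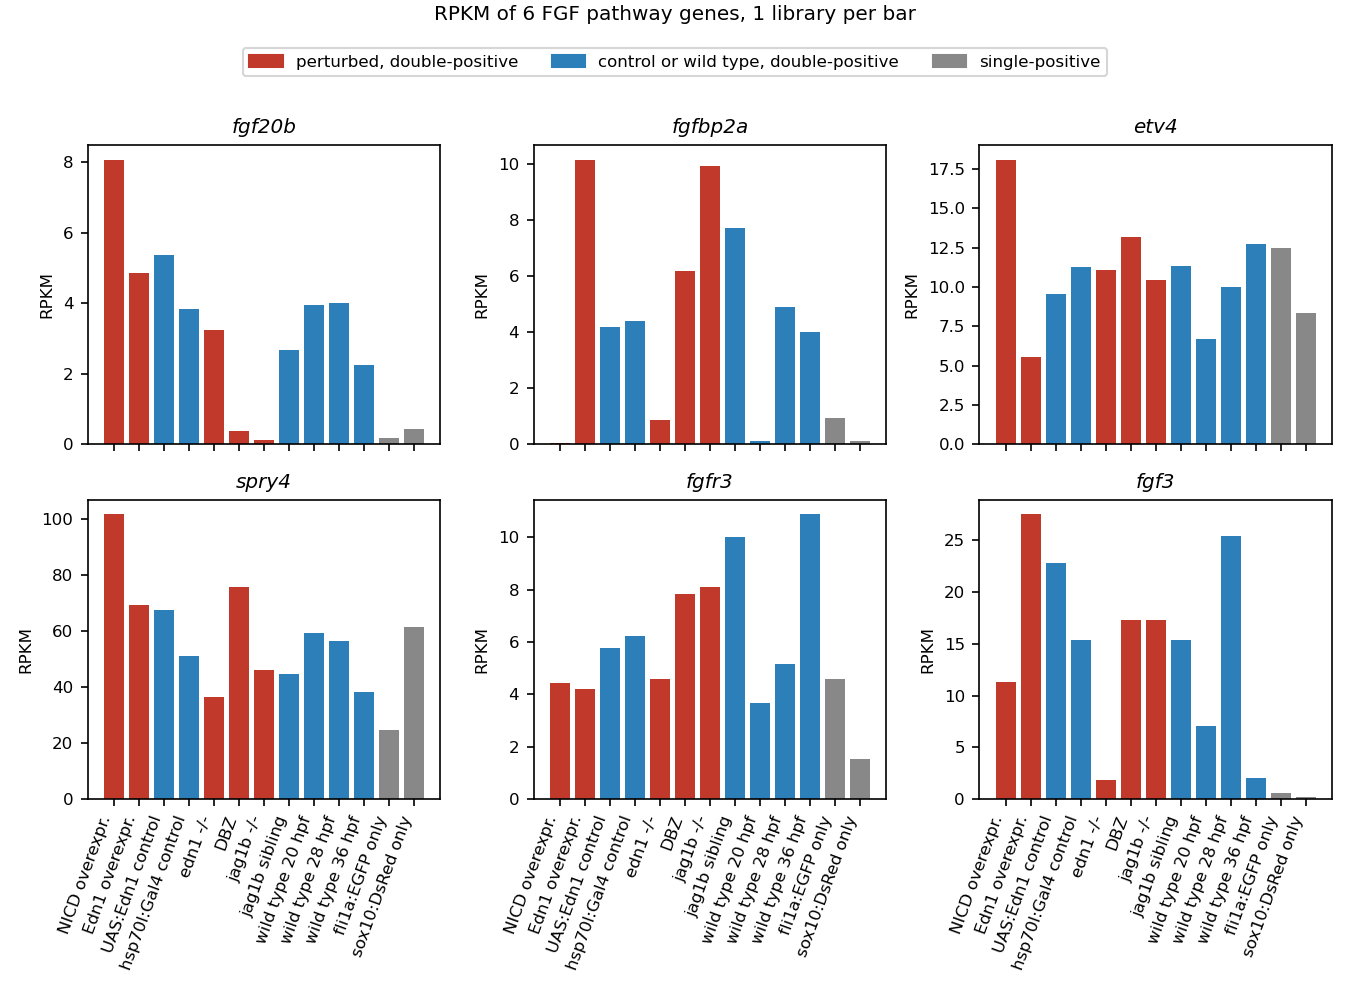
RPKM (y axis, from 0) of *fgf20b*, *fgfbp2a*, *etv4*, *spry4*, *fgfr3* and *fgf3* in the 13 libraries, 1 bar per library, with perturbed double-positive libraries in red, control and wild-type double-positive libraries in blue and single-positive libraries in gray. *fgf20b* is close to 0 with DBZ, in *jag1b*-/- and in single-positive cells. *fgfbp2a* is close to 0 with NICD overexpression, at 20 hpf and in *sox10*:DsRed single-positive cells. *fgf3* is low in the 4 libraries that stood apart.

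With altered Edn1, *fgfbp2a* was lower in the mutants and higher with overexpression. *fgfbp2a* had 10.2 RPKM (720 reads) with Edn1 overexpression, the highest of the 13 libraries, against 4.41 RPKM (409 reads) in *hsp70I*:Gal4 and 4.18 RPKM (251 reads) in *UAS*:Edn1 controls. It was 2.31-fold (2.04 to 2.61) and 2.43-fold (2.11 to 2.82) higher. In *edn1* mutants it had 0.850 RPKM (44 reads), against 3.99 RPKM (301 reads) in the 36 hpf wild type and 7.72 RPKM (596 reads) in *jag1b* siblings, which is 4.70-fold (3.42 to 6.602) and 9.09-fold (6.69 to 12.6) lower. The neighboring entry ENSDARG00000039963 had 2 reads in *edn1* mutants against 55 and 33 reads, 18.9-fold (4.99 to 160) and 11.1-fold (2.83 to 95.2) lower, although it did not reach the mean of 1 RPKM. It had 0.652 RPKM with Edn1 overexpression against 0.555 and 0.591 RPKM in the controls. *fgfbp2b* had 8.65 RPKM in *edn1* mutants against 6.85 RPKM in the wild type and 18.3 RPKM in siblings, so that no direction held.

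In *edn1* mutants 1 of 26 genes was higher and 3 lower than in the 36 hpf wild type, and the same genes held against both controls. Of all genes, 35.9% differed from the wild type (24.6% higher and 11.3% lower) and 24.5% from both (17.3% higher and 7.17% lower). Against siblings alone, 5 were higher and 8 lower (50% of all genes, 35.1% higher and 14.8% lower). The median log2 ratio of all genes was 0.22 against the wild type and 0.34 against siblings, so the middle of the distribution lay above 0 in this library, which was also the shallowest. *fgfr3* had 4.57 RPKM (512 reads) in *edn1* mutants, against 10.9 RPKM (1773 reads) in the wild type and 10.02 RPKM (1673 reads) in siblings, 2.38-fold (2.15 to 2.63) and 2.19-fold (1.98 to 2.43) lower. *fgfrl1b* had 3.20 RPKM against 5.30 and 5.58 RPKM, 1.66-fold (1.47 to 1.87) and 1.74-fold (1.55 to 1.96) lower. The heat-shocked *hsp70I*:Gal4 and *UAS*:Edn1 controls lay between mutants and these controls, with 6.22 and 5.75 RPKM of *fgfr3*. They had 3.30 and 4.55 RPKM of *fgfrl1b*, the first close to the mutants. *fgf10a* had 17.3 RPKM, the highest of the 13 libraries, against 10.2 and 8.97 RPKM, 1.69-fold (1.55 to 1.83) and 1.92-fold (1.76 to 2.10) higher. After rescaling to a common median its ratios were 1.42 and 1.49, below the threshold, while *fgfr3*, *fgfrl1b* and *fgfbp2a* stayed lower and *fgfr2* and *dusp6* became lower against both controls. Other cells also differed in this library. Erythroid markers summed to 13.9 RPKM in mutants against 133 RPKM in the wild type and 324 RPKM in siblings. Muscle markers summed to 93.7 against 401 and 123 RPKM, and endothelial markers to 35.7 against 22.5 and 14.4 RPKM. The endothelial sum was carried by *kdrl* (13.8 RPKM against 5.44 and 4.41 RPKM) and *egfl7* (16.1 against 11.1 and 6.04 RPKM). The endothelial markers *sox7*, *sox18* and *erg* were lower in mutants than in both controls. The part of other cells in the values of *edn1* mutants was not tested.

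*fgf3* and *spry1* of *edn1* mutants were close to the 36 hpf wild type and far from siblings. *fgf3* had 1.87 RPKM in mutants against 2.04 RPKM in the wild type and 15.4 RPKM in siblings, and *spry1* had 8.55 RPKM in mutants against 8.55 and 2.09 RPKM. *dusp6* had 14.6 RPKM in mutants against 21.8 RPKM in the wild type and 47.1 RPKM in siblings, 1.49-fold and 3.23-fold lower. The mutant and the wild type are both among the 4 libraries that stood apart, so a difference from siblings cannot be told apart from that grouping.

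With Edn1 overexpression 5 of 26 genes were higher and 2 lower than in *hsp70I*:Gal4 controls (13.7% of all genes differed, 5.09% higher and 8.59% lower). Against *UAS*:Edn1 controls 1 was higher and 1 lower (10.2%, 3.5% higher and 6.74% lower), and these held against both (4.41%, 1.25% higher and 3.16% lower). Beside *fgfbp2a* the gene was *etv4*, with 5.55 RPKM against 11.3 and 9.53 RPKM, 2.03-fold and 1.72-fold lower. This was its lowest level of the 13 libraries, while its highest was with NICD overexpression. *etv5a* and *etv5b* had 32.5 and 55.7 RPKM, against 37.5 and 63.6 RPKM in *hsp70I*:Gal4 controls and 45.4 and 77.0 RPKM in *UAS*:Edn1 controls, within 1.5-fold. *spry4* had 69.2 RPKM against 51.2 and 67.6 RPKM. *fgfr3* had 4.22 RPKM against 6.22 and 5.75 RPKM, 1.47-fold and 1.36-fold lower, and so it was not higher where Edn1 was raised.

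**Figure D4:**
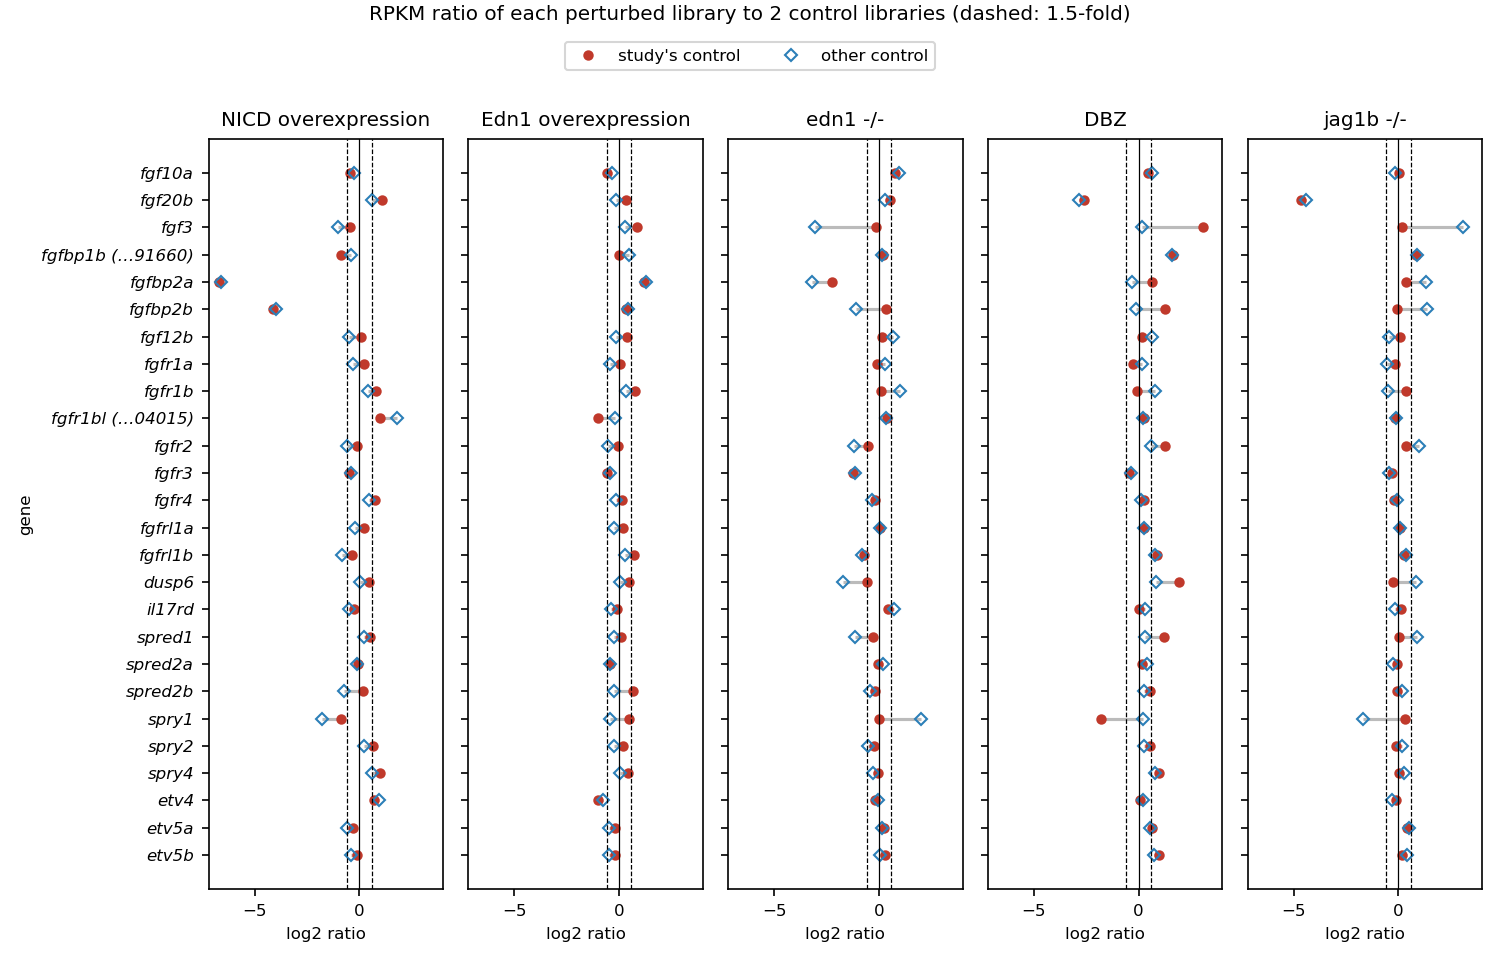
Log2 ratio of RPKM (x axis) of the 26 pathway genes (y axis) in each perturbed library to the control used in the study (filled circles) and to the other control library (open diamonds), with a dashed line at 1.5-fold on each side. *fgfbp2a* and *fgfbp2b* lie far left with NICD overexpression, *fgf20b* lies far left with DBZ and in *jag1b*-/-, and the widest gaps between circle and diamond belong to *fgf3* and *spry1* in the 3 comparisons that use the 36 hpf wild type.

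The control libraries give the size of differences with no perturbation of Edn1 or Notch. *UAS*:Edn1 controls had 2 of 26 genes higher and 1 lower than *hsp70I*:Gal4 controls (16.5% of all genes differed, 8.67% higher and 7.86% lower), and *jag1b* siblings had 6 higher and 2 lower than the 36 hpf wild type (30.6%, 13.2% higher and 17.4% lower). *fgf20b* ranged from 2.25 to 5.37 RPKM over the 4 control libraries at 36 hpf, and the values of *jag1b* mutants, DBZ and NICD overexpression lay outside that range. *fgfbp2a* ranged from 3.99 to 7.72 RPKM over these controls, with NICD overexpression and *edn1* mutants below and Edn1 overexpression and *jag1b* mutants above. *etv4* ranged from 9.53 to 12.7 RPKM, and *spry4* from 38.2 to 67.6 RPKM.

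Feedback inhibitors and ETS targets varied together in some pairs and not in others. Over the 55 pairs of the 11 such genes, Spearman's rho across the 11 double-positive libraries had a median of 0.28 and ranged from -0.66 to 0.85, with 41 pairs above 0. The libraries share controls and handling, so this is a description. *spred1* and *spry4* had a rho of 0.85 and *spry4* and *dusp6* of 0.81, while *dusp6* and *spry1* had -0.66. Across the 9 libraries without the 36 hpf wild type and the *edn1* mutant these values were 0.73, 0.65 and -0.38, and the median over the pairs was 0.27, with a range of -0.38 to 1 and 43 pairs above 0. The pair at 1 was *etv5a* and *il17rd*, whose rho was 0.64 across the 11 libraries.

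Genes of the relay that the name rule does not cover were taken from a list of 85 names of adaptors, Ras, Raf and MAP kinases, other Dusp phosphatases, heparan sulfate enzymes and proteoglycans. These names matched 81 entries, with *ndst2a* and *raf1a* matching more than once, and 62 of the entries passed the filter. With NICD overexpression 21 of the 62 were higher and 2 lower than in *hsp70I*:Gal4 controls (16.6% of all genes were higher and 7.72% lower), and 14 were higher and 5 lower than in *UAS*:Edn1 controls (15% and 9.95%). *dusp5*, an ERK phosphatase, had 47.0 RPKM with NICD overexpression against 23.3 and 23.9 RPKM in these controls, and *dusp2* had 27.3 RPKM against 10.3 and 10.4 RPKM, although it had 28.0 RPKM in the 36 hpf wild type. *sulf1*, which trims sulfate from heparan sulfate, had 29.4 RPKM against 8.33 and 7.57 RPKM, its highest level of the 13 libraries. *egr1*, an immediate early gene of the ERK cascade, had 82.0 RPKM against 39.6 and 48.0 RPKM, but had 92.3 RPKM in the 36 hpf wild type without heat shock. In *jag1b* mutants 1 of the 62 was higher and 2 were lower than in siblings, where 2.37% of all genes were higher and 4.14% lower, and 8 were higher and 13 lower than in the 36 hpf wild type (12.8% and 20.5%). Edn1 overexpression had 2 higher and 2 lower than *hsp70I*:Gal4 controls (5.09% and 8.59%), and 1 higher and 2 lower than *UAS*:Edn1 controls (3.5% and 6.74%). With DBZ 11 were higher and 8 lower than in the 36 hpf wild type (14.2% and 15.7%), and 8 were higher and 2 lower than in siblings (12.2% and 8.73%). In *edn1* mutants 13 were higher and 6 lower than in the wild type (24.6% and 11.3%), and 18 were higher and 11 lower than in siblings (35.1% and 14.8%). Between 20 and 28 hpf 11 were higher and 5 lower at 28 hpf (20.5% and 11%).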

How the data were processed

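RNA of sorted populations was amplified to cDNA and sequenced in 13 libraries. The deposited values are RPKM, which the authors computed in Partek by its E/M method from quality-trimmed reads that TopHat 2 had placed on GRCz10, using the gene models of Ensembl release 80. The algorithm shares out reads that fit several genes, so values of similar paralogs are uncertain. All columns were used as deposited, without scaling, and ratios of RPKM were taken without a pseudocount.

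Genes averaging 1 RPKM or more over the 13 libraries were counted, and a ratio of 1.5 in either direction was a call. Whole reads were recovered from the RPKM steps within 0.06 of a read, which also gave relative depth, and exact 95% Clopper-Pearson intervals were taken from them. A gene at 0 was set to a floor of 3 reads for a bound. Scripts were tested on simulated data. Replicates did not exist, so no p-value was computed, and the control pairs give the only spread.

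Genes, gene lists and comparisons were chosen with earlier results of these data known. Named are receptors and targets with a mean of at least 1 RPKM, other pathway genes reaching 1 RPKM in a library and genes called in a comparison. Genes of the wider relay were named after their values were seen. Alternatives were a minimum of 3 RPKM or none, the other control library, division of each library by its median ratio to the rest, and 0.1 added to every value. Gene tables of GRCz12tu gave symbols and neighbors only, with gene order taken from start positions, and no sequence was used. Calculations used Python 3.11.15, numpy 2.4.6, pandas 2.3.3, scipy 1.17.1 and matplotlib 3.10.9.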

Additional observations from a re-analysis of the deposited data

How the results depend on the processing

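No paired analysis was possible because each condition had 1 library. For the same reason no replicate could be left out. A pseudocount of 0.1 moved none of the 16 counts by over 1.5 times. With no minimum RPKM the count of pathway genes called was 21 for 28 over 20 hpf, 27 for 36 over 28 hpf, 29 and 37 for double-positive over *fli1a*:EGFP and *sox10*:DsRed cells, 17 for *edn1* mutants, 18 for Edn1 overexpression, 14 for *jag1b* mutants, 25 for DBZ, 24 for NICD overexpression, 20 for *jag1b* siblings against the wild type and 12 between the transgenic controls, since genes of few reads then enter. With a minimum of 3 RPKM, *jag1b* mutants had 1 gene against siblings, and 1 gene against both controls. The other control gave 13 genes for *edn1* mutants, 2 for Edn1 overexpression and 9 for *jag1b* mutants, and rescaling by the median ratio gave 9 for double-positive over *fli1a*:EGFP cells. The cause was not tested. Alternatives for the counts against both controls, and the rank correlations without the 36 hpf wild type and the *edn1* mutant, were added after the data were seen. Several genes under 1 RPKM, such as *fgf10b*, rest on few reads, and absence from the cells cannot be read from a level of 0.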

Other observations

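Among the entries that matched only by name, *spryd7a* and *spryd4* were called in *edn1* mutants against both controls. *spryd7a* had 0.548 RPKM in *edn1* mutants, 0.927 RPKM in the 36 hpf wild type, 1.04 RPKM in *fli1a*:EGFP and 1.34 RPKM in *sox10*:DsRed single-positive cells, and 4.01 to 8.18 RPKM in the 9 other libraries. *spryd4* was higher in *edn1* mutants, at 26.4 RPKM, than in the 36 hpf wild type at 15.7 RPKM and in *jag1b* siblings at 9.11 RPKM, but rescaled to a common median it had 22.5 RPKM in mutants against 15.9 RPKM in the wild type, under 1.5-fold. *fgfr1op* stayed between 4.72 and 7.36 RPKM in all 13 libraries.

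Among relay genes, *mapk3*, which encodes ERK1, had 4.58 RPKM in *edn1* mutants and 9.16 RPKM in the 36 hpf wild type, against 18.5 RPKM in *jag1b* siblings. It had 8.89 and 9.02 RPKM in the single-positive libraries, so that it was low in the same 4 libraries as *fgf3*. The other entry named *fgfr1bl* (ENSDARG00000075027) had 1.16 RPKM in *edn1* mutants, 0.102 RPKM in the 36 hpf wild type and 0.897 RPKM in *jag1b* siblings, on 47, 6 and 54 reads.

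*kal1a*, an extracellular protein gene that interacts with Fgf receptors in mammals, had 3.77 RPKM with NICD overexpression against 1.18 and 1.24 RPKM in *hsp70I*:Gal4 and *UAS*:Edn1 controls, and 7.50 RPKM in *sox10*:DsRed single-positive cells.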
